A study of Homo sapiens with 6 samples.

Results

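Expression was described for 8 genes of the red cell: GYPB, GYPC, SPTB, ANK1, EPB42, KEL and RHAG, which encode proteins of the red cell membrane, and AHSP, which encodes the chaperone of free alpha globin. They were found in the expression table by the Ensembl gene identifier of each symbol, and they are 8 of its 58288 genes. The cells were K562, a human erythroleukemia line that makes embryonic and fetal globins, and the samples were single cell clones that stably carried a tagged MYB (3xFLAG at one end and HA at the other) under selection with 200 µg/ml G418. MYB is a transcription factor of blood progenitors, and SUMO is a small protein that can be attached to lysines of other proteins. There were 3 libraries of the 2KR-MYB rescue, in which the lysines of MYB that accept SUMO are arginines, and 3 of the ANAA-MYB rescue, in which the motif of MYB that binds SUMO is mutated. All 6 libraries received siRNA si2992 against the endogenous MYB transcript, and RNA was taken 24 h later. Each rescue was 1 clone, so the mutant and the clone cannot be told apart. The libraries called replicates are described as biological, and p-values measure the spread between them.

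The red cell membrane is a lipid bilayer held to a mesh of spectrin, a long flexible protein. Ankyrin ties beta spectrin to band 3 and to the Rh proteins, with protein 4.2 at the same complex, and a second anchor at the actin junctions ties spectrin through protein 4.1 to glycophorin C. Kell is a surface enzyme and blood group protein bound to XK, and AHSP holds alpha globin until it joins a beta-like chain. The transcription factors GATA1 and KLF1 drive many of these genes during erythroid maturation.

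The sequences before the start sites of the genes are shown because red cell genes are commonly read from short promoters with GATA motifs. RefSeq windows on GRCh38.p14 were matched for 6 of the 8 genes, all but AHSP and ANK1, and only the 250 bases before each start are considered. The motifs searched on both strands were AGATAA or AGATAG and TGATAA or TGATAG. The search and its letters were chosen with the sequences in view. Each of the 6 genes had at least 1 of these motifs in a window, and 22.3% of all 35116 windows of that length did. GYPB and SPTB had 2 windows each, so the tally by gene and the share by window are unlike measures. The 2 windows of GYPB overlap and held 1 and 2 motifs, with 1 site in common. Of the 2 windows of SPTB only the upstream one held any. In the lines that follow the capitals mark the motif on either strand. KEL is the gene with the clearest rise among those with a window, SPTB and RHAG are intermediate, and GYPC did not differ detectably. KEL is read on the minus strand from chr7:142962364-142962613, SPTB on the minus strand from chr14:64879908-64880157, RHAG on the minus strand from chr6:49636840-49637089 and GYPC on the plus strand from chr2:126655908-126656157.
KEL: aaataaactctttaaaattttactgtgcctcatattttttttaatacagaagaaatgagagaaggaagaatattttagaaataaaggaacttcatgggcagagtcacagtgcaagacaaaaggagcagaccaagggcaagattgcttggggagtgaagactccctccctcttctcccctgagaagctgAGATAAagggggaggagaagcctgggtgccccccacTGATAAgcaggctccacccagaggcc
SPTB: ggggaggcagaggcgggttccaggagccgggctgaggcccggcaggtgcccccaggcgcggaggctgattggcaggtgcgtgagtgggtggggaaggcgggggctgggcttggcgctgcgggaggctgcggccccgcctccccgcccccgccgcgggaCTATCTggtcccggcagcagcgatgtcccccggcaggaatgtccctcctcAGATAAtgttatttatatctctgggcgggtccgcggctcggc
RHAG: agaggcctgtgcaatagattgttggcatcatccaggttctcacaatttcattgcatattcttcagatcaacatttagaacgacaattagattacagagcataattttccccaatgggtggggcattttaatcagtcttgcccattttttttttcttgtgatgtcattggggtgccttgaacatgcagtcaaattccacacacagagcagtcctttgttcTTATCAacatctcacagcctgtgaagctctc
GYPC: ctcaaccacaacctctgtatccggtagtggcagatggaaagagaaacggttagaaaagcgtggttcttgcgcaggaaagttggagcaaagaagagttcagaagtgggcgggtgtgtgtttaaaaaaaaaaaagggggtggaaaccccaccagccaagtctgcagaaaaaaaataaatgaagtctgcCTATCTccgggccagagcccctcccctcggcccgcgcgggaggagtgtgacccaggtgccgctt

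The motifs of KEL began 62 and 26 bases before its start, those of SPTB 92 and 42, that of RHAG 31 and that of GYPC 64 bases before. EPB42 had motifs at 208 and 61 bases. The core letters bound by MYB itself, AACNG on either strand, stood in 70.6% of all windows. The KEL and RHAG windows and the SPTB window shown held none of them, while the GYPC window held 2 matches that overlap. The windows of GYPB held 4 and 3, that of EPB42 held 2 and the other window of SPTB held 1. The letters CACCC, which are part of the site of KLF1, stood in 54.7% of all windows and in each of the 4 windows printed. A match in these windows is a description of the letters and not of binding.

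The deposited values are FPKM, fragments scaled by transcript length and by the size of the library, and the depth behind them is unknown. The FPKM of a library summed to between 579920 and 633662, and libraries of the same rescue correlated at 0.983 to 0.989 across genes, against 0.968 to 0.973 between the rescues. MYB, whose reads include the rescue transcript, measured 69.0, 61.2 and 67.5 FPKM across the 2KR-MYB libraries, against 53.6, 55.3 and 62.0 FPKM across the ANAA-MYB libraries. Genes averaging 1 FPKM or more across all 6 libraries entered the test, the difference of the 2KR-MYB from the ANAA-MYB rescue in log2(FPKM + 1), a scale that understates changes of low genes. The test was limma's with Benjamini-Hochberg adjustment over all 12634 tested genes and a threshold of 0.01. An exact two-sided permutation test of 3 libraries against 3 cannot go below p = 0.1. The 5 erythroid markers TFRC, HBG1, HBG2, GATA1 and KLF1 summed to 1437, 1556 and 1548 FPKM across the 2KR-MYB libraries and to 1715, 1732 and 2101 FPKM across the ANAA-MYB libraries. HBG1 and HBG2 made up most of that sum and missed the threshold (adjusted p = 0.0405 and 0.118 by limma), while TFRC, GATA1 and KLF1 passed it. ANAA-MYB replicate 3 alone was the top of that sum, and there HBG1 and HBG2, the fetal globins, lay further above the mean of the other 2 replicates than for 98.0% and 98.3% of tested genes on the log2 scale. Not all erythroid genes lay this way: the embryonic globin HBE1 averaged 167 FPKM in the 2KR-MYB rescue against 143 FPKM and the transcription factor TAL1 39.7 against 32.0 FPKM, both without overlap and short of the threshold (adjusted p = 0.0278 and 0.0449 by limma), while the embryonic globin HBZ overlapped (adjusted p = 0.37).

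Of the 8 genes, 7 passed the filter and 3 passed the threshold. KEL and AHSP were higher in the 2KR-MYB rescue, and ANK1 was higher in the ANAA-MYB rescue. AHSP passed the filter only through the rescue in which it was high, and with no filter on low values it was not called, which left 2 of the 8 genes called. In that fit with no filter, 942 of 28536 genes were called. SPTB and RHAG lay higher in every 2KR-MYB library but missed the threshold, GYPB overlapped between the rescues, and GYPC was level. Among all tested genes 13.0% passed, 5.57% as higher in the 2KR-MYB rescue and 7.42% as higher in the ANAA-MYB rescue. The libraries of the rescues did not overlap for 5 of the 7 tested genes, and for 44.9% of all tested genes. At a threshold of 0.05, 5 of the 7 passed (KEL, AHSP, SPTB, RHAG and ANK1), against 26.9% of all tested genes. Gene by gene, the exact permutation test (two-sided, on FPKM) gave p = 0.1 for each of the 6 genes whose groups did not overlap, EPB42 included, 0.4 for GYPB and 1.0 for GYPC. In bulk RNA, fewer cells with a transcript and less of it per cell cannot be told apart. The median log2 difference was 0.40 over the 7 genes and -0.015 over all tested genes. The 7 include AHSP, which entered only through the rescue in which it was high, so this contrast is a description and no test.

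KEL (ENSG00000197993, GRCh38 chromosome 7, 142941114 to 142962363) encodes Kell, an endothelin-processing metalloprotease of the red cell surface. It measured 44.2, 48.1 and 50.5 FPKM across the 2KR-MYB libraries, against 24.9, 21.5 and 24.7 FPKM across the ANAA-MYB libraries. Every 2KR-MYB library lay far above every ANAA-MYB library. The means were 47.6 ± 3.20 and 23.7 ± 1.87 FPKM (SD, n = 3 each), a ratio of 2.01. The log2 difference was 0.98 (95% interval 0.81 to 1.14, standard error 0.073, adjusted p = 0.000108 by limma). Its membrane partner XK, a scramblase to which Kell is linked by a disulfide bond, was at 10.8, 11.3 and 10.97 FPKM against 8.96, 8.99 and 9.58 FPKM. XK thus lay higher in all 2KR-MYB libraries by a smaller step, a log2 difference of 0.24, and missed the threshold (adjusted p = 0.0166 by limma). The ratio of KEL to XK within a library ran from 4.08 to 4.61 in the 2KR-MYB rescue and from 2.40 to 2.78 in the ANAA-MYB rescue. ECE1, a widely used endothelin-converting relative of Kell, was called in the opposite direction, with 8.999 FPKM on average against 12.3 FPKM and a log2 difference of -0.42 (adjusted p = 0.00431 by limma), a call that was lost in 6 of 14 alternatives.

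ANK1 (ENSG00000029534, GRCh38 chromosome 8, 41653225 to 41896741) encodes the erythroid ankyrin that joins spectrin to the membrane. It measured 29.4, 32.3 and 31.9 FPKM across the 2KR-MYB libraries, against 47.6, 44.8 and 46.8 FPKM across the ANAA-MYB libraries. Every ANAA-MYB library lay above every 2KR-MYB library, and neither rescue had a library that stood apart. The mean of the ANAA-MYB rescue was 1.49 times that of the 2KR-MYB rescue, and the log2 difference was -0.56 (95% interval -0.68 to -0.44, standard error 0.053, adjusted p = 0.000317 by limma). ANK3, an ankyrin used mainly outside red cells, was called higher in the 2KR-MYB rescue, with 19.6 FPKM on average against 14.7 FPKM and a log2 difference of 0.40 (adjusted p = 0.00718 by limma). The call of ANK1 passed under every alternative tried, with adjusted p from 0.000151 to 0.00297, whereas that of ANK3 was lost in 6 of 14 alternatives.

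SPTB (ENSG00000070182, GRCh38 chromosome 14, 64746283 to 64879907) encodes the erythroid beta spectrin that ankyrin binds. It measured 5.59, 5.90 and 6.73 FPKM across the 2KR-MYB libraries, against 4.07, 4.24 and 4.82 FPKM across the ANAA-MYB libraries. The lowest 2KR-MYB library lay above the highest ANAA-MYB library. The log2 difference was 0.40 (95% interval 0.19 to 0.60, adjusted p = 0.0143 by limma), which missed the threshold and passed it under upper quartile scaling of the libraries (adjusted p = 0.00797).
The ratio of ANK1 to SPTB ran from 4.74 to 5.48 in the 2KR-MYB rescue and from 9.70 to 11.7 in the ANAA-MYB rescue. The 6 such ratios computed were chosen after the values had been seen and carry no test. SPTBN1, the beta spectrin of most other cells, was called higher in the 2KR-MYB rescue (log2 difference 0.34, adjusted p = 0.00759 by limma) but lost that call in 8 of 14 alternatives.

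RHAG (ENSG00000112077, GRCh38 chromosome 6, 49605175 to 49636839) encodes the Rh-associated glycoprotein, an ammonia channel that carries the Rh proteins to the membrane. It had the highest level of the 8 genes in every library, 317, 319 and 303 FPKM across the 2KR-MYB libraries against 263, 273 and 291 FPKM across the ANAA-MYB libraries, and its mean level lay above 98.0% of tested genes. The rescues did not overlap, but the lowest 2KR-MYB library and the highest ANAA-MYB library were close. The log2 difference was 0.18 (95% interval 0.06 to 0.30, adjusted p = 0.0354 by limma), which missed the threshold and passed it under upper quartile scaling (adjusted p = 0.00891). RHCE, the Rh protein that RHAG carries, was low, with 2.61 ± 0.787 and 2.28 ± 0.262 FPKM (SD, n = 3 each), and overlapped between the rescues. RHCE and RHD are near copies whose reads may be split between them, and the ratio of RHAG to their sum overlapped, at 47.3 to 60.1 and 45.8 to 56.9. The ratio of ANK1 to RHAG did not overlap, at 0.093 to 0.105 and 0.161 to 0.181.

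EPB42 (ENSG00000166947, GRCh38 chromosome 15, 43197227 to 43225737) encodes protein 4.2, which sits on band 3 beside ankyrin. It was listed at 0.402, 0.693 and 0.654 FPKM across the 2KR-MYB libraries, against 0.216, 0.200 and 0.293 FPKM across the ANAA-MYB libraries. The groups did not overlap, yet all values lay below 1 FPKM, and the gene did not pass the filter and was not tested. The ratio of the means was 2.47, and in the fit with no filter the adjusted p was 0.0583 by limma. The band 3 gene SLC4A1 was just as low, at 0.696, 0.423 and 1.38 FPKM and at 0.279, 0.262 and 0.435 FPKM, and its libraries overlapped. In these cells the transcripts of band 3 and protein 4.2 thus lay below the filter, while those of ANK1 and RHAG were plentiful.

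GYPB and GYPC encode glycophorins, sialic acid-rich surface proteins that carry blood group antigens, but they are not relatives in sequence. GYPC (ENSG00000136732, GRCh38 chromosome 2, 126656158 to 126696667) measured 47.6, 47.0 and 45.6 FPKM across the 2KR-MYB libraries, against 46.1, 49.8 and 44.3 FPKM across the ANAA-MYB libraries. The libraries interleaved, and the log2 difference was 0.0016 with a 95% interval from -0.12 to 0.13 (adjusted p = 0.986 by limma), so a change beyond about 0.13 in either direction lay outside the interval. EPB41, the protein 4.1 that binds glycophorin C, was likewise level, with a log2 difference of 0.04 (95% interval -0.09 to 0.17, adjusted p = 0.624 by limma). The ratio of GYPC to EPB41 overlapped, at 0.299 to 0.337 and 0.309 to 0.346.

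GYPB (ENSG00000250361, GRCh38 chromosome 4, 143995188 to 144019380) lies in a cluster of near copies that includes GYPE, so reads may be split between them and its values are uncertain. It measured 37.8, 45.0 and 49.0 FPKM across the 2KR-MYB libraries, against 22.0, 30.8 and 51.8 FPKM across the ANAA-MYB libraries. The ANAA-MYB libraries spread from the lowest to the highest value of all 6. The log2 difference was 0.40 (95% interval -0.19 to 1.00, adjusted p = 0.287 by limma). Its SD within the ANAA-MYB rescue, 0.60 on the log2 scale, was larger than that of 99.2% of tested genes, and replicate 3 lay 0.96 above the mean of the other two, more than for 99.8% of tested genes. Without ANAA-MYB replicate 3 the difference was 0.72 (adjusted p = 0.019), and without ANAA-MYB replicate 1 it was 0.13 (adjusted p = 0.692). GYPE was at 18.1, 17.8 and 22.2 FPKM against 17.4, 17.9 and 16.9 FPKM, with overlap and a log2 difference of 0.14 (adjusted p = 0.249 by limma).

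AHSP (ENSG00000169877, GRCh38 chromosome 16, 31527900 to 31528803) was low but differed by the largest ratio of the 8 genes. It measured 2.77, 3.19 and 2.47 FPKM across the 2KR-MYB libraries, against 0.542, 0.537 and 1.19 FPKM across the ANAA-MYB libraries. All 2KR-MYB libraries lay above all ANAA-MYB libraries, and ANAA-MYB replicate 3 stood above the other two, by 0.51 on the log2 scale, more than for 99.2% of tested genes. The means were 2.81 ± 0.3604 and 0.756 ± 0.376 FPKM (SD, n = 3 each), a ratio of 3.72. The log2 difference was 1.13 (95% interval 0.77 to 1.498, standard error 0.158, adjusted p = 0.00176 by limma). AHSP passed the filter only through the 2KR-MYB rescue, since its mean in the ANAA-MYB rescue was below 1 FPKM, and with no filter on low values its adjusted p was 0.0157, above the threshold. With a pseudocount of 0.1 the difference was 1.84.
The client of AHSP lay in the other direction. HBA1 measured 43.2, 52.6 and 38.7 FPKM against 59.2, 58.8 and 68.7 FPKM, and HBA2 measured 18.4, 20.1 and 13.2 FPKM against 24.0, 28.0 and 32.3 FPKM. Each was higher in every ANAA-MYB library, but neither passed the threshold (log2 differences -0.47 and -0.69, adjusted p = 0.0163 and 0.0144 by limma), and as near copies their reads may be split. The sum of HBA1 and HBA2 was 21.0 to 22.8 times AHSP in the 2KR-MYB rescue and 84.9 to 162 times in the ANAA-MYB rescue. Of 8 tested hemoglobin chains, 1 passed the threshold, against 13.0% of all tested genes. It was the theta-like chain HBQ1, with 6.47 FPKM on average against 12.0 FPKM (log2 difference -0.80, adjusted p = 0.00195 by limma), and that call was lost in 1 of 14 alternatives.

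On this per-length scale the genes ranked alike at the ends in both rescues. In the 2KR-MYB rescue RHAG was followed by KEL, GYPC and GYPB, which overlapped with one another, and then, each without overlap, by ANK1, SPTB, AHSP and EPB42. In the ANAA-MYB rescue RHAG was followed by GYPC, ANK1, GYPB and KEL, where each overlapped with the next in that order, and then, each without overlap, by SPTB, AHSP and EPB42. By mean level KEL thus ranked 2 of 8 in the 2KR-MYB rescue and 5 of 8 in the ANAA-MYB rescue, and ANK1 ranked 5 and 3.

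The 3 lists of partners reported here held 41 further genes of the red cell membrane, of which 33 were tested. Their median log2 difference was -0.09, against -0.015 over all tested genes. They had 2 genes called higher in the 2KR-MYB rescue and 6 in the ANAA-MYB rescue, against 5.57% and 7.42% of all tested genes. This split was 4 and 5 under upper quartile scaling and 3 and 5 under quantile normalization, and 3 to 5 partners in all were called when any one library was left out. Of 5 tested partners in the ankyrin complex, limma called 0 higher in the 2KR-MYB rescue, where 0 had an unadjusted p under 0.05, and 1 higher in the ANAA-MYB rescue. This was ICAM4, an adhesion protein of the Rh complex, with a log2 difference of -0.42 (adjusted p = 0.000561 by limma). Of 13 tested partners at the spectrin and actin junctions, TPM1 and TMOD1, a tropomyosin and a tropomodulin that line and cap the short actin filaments, were called higher in the 2KR-MYB rescue (log2 differences 0.58 and 0.46, adjusted p = 0.00538 and 0.00419 by limma). STOM, the stomatin of lipid rafts, was called higher in the ANAA-MYB rescue, at 48.2, 48.2 and 52.9 FPKM against 32.7, 33.2 and 33.7 FPKM (log2 difference -0.57, adjusted p = 0.000254 by limma). Of 15 tested other surface proteins limma called 0 higher in the 2KR-MYB rescue, where 2 had an unadjusted p under 0.05, and 4 higher in the ANAA-MYB rescue. These were BSG, the carrier chaperone basigin, SLC29A1, a nucleoside transporter, KCNN4, the Gardos potassium channel, and TFRC, the transferrin receptor, with log2 differences of -0.37, -0.35, -0.53 and -0.29. Among 10 tested relatives of these proteins used mainly outside red cells, ANK3 and SPTBN1 were called higher in the 2KR-MYB rescue and ECE1 in the ANAA-MYB rescue, and the median log2 difference was 0.22. Of the 8 calls in the 3 lists of partners, 3 (ICAM4, STOM and BSG) held under every alternative and 5 were lost under at least 1.

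**Figure D1:**
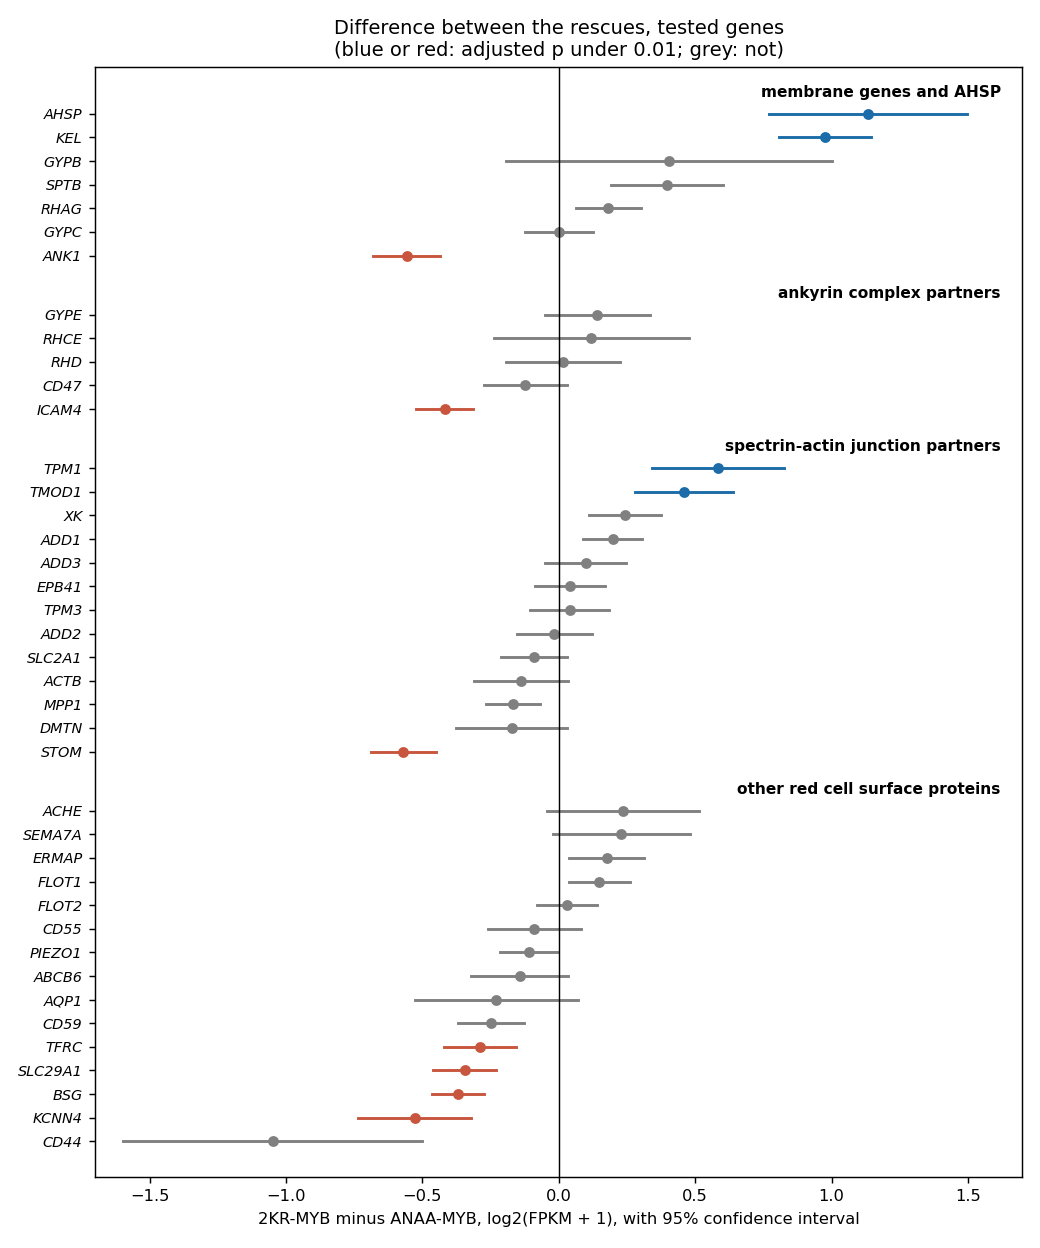
Log2 difference of FPKM + 1, 2KR-MYB minus ANAA-MYB (horizontal axis), with its 95% confidence interval, for the 7 of the 8 genes that were tested and for 33 tested partners in 3 lists. Colour marks an adjusted p under 0.01, blue with the 2KR-MYB rescue higher and red with the ANAA-MYB rescue higher, and both colours occur among the genes at the top and among the partners.

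Of 8 tested erythroid transcription factors, limma called 0 higher in the 2KR-MYB rescue, where 1, TAL1, had an unadjusted p under 0.05, and 5 higher in the ANAA-MYB rescue. These were KLF1, GATA1, NFE2, GFI1B and LDB1, with log2 differences of -0.65, -0.45, -0.40, -0.46 and -0.27. The calls of KLF1, GATA1 and NFE2 held under all 14 alternatives, whereas that of GFI1B was lost in 5 and that of LDB1 in 9, and 3 of the 5 were left with no filter, without 2KR-MYB replicate 1, without 2KR-MYB replicate 2 or without ANAA-MYB replicate 1. GATA1 measured 79.0, 74.9 and 80.6 FPKM across the 2KR-MYB libraries, against 111, 107 and 105 FPKM across the ANAA-MYB libraries. ANK1 and these 5 factors were therefore higher in the same rescue and KEL and AHSP in the other. Their part in the results was not tested.

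Markers of other blood lineages were also measured. The 7 megakaryocyte markers summed to 5.01 to 6.43 FPKM in the 2KR-MYB rescue and 7.67 to 8.99 FPKM in the ANAA-MYB rescue, with GP9 and PF4 listed at 0 in all libraries. The 6 granulocyte and monocyte markers summed to 10.2 to 13.4 and 20.1 to 25.2 FPKM, with ELANE listed at 0. Most of that sum was LYZ, the lysozyme of myeloid cells, at 10.5, 9.11 and 12.1 FPKM against 22.5, 24.2 and 19.1 FPKM (log2 difference -0.99, adjusted p = 0.000658 by limma), with a mean level above 54.7% of tested genes. MPO lay the other way without overlap, at 0.372, 0.159 and 0.375 FPKM against 0.126, 0.0605 and 0.098 FPKM. CSF3R, CD14 and ITGAM overlapped between the rescues, and like MPO they were below the filter. The 6 lymphocyte markers summed to 4.36 to 5.01 and 6.60 to 8.70 FPKM, with MS4A1 listed at 0 and NKG7 called (log2 difference -0.81). All 3 sums were higher in the ANAA-MYB rescue, and their part in the differences of the 8 genes was not tested.

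The 8 genes lie on 8 different chromosomes, and each was set beside the 10 tested genes nearest on either side, windows chosen after the values had been seen. The 20 genes around KEL had a median log2 difference of 0.06, with 15 of 20 above 0, 4 called higher in the 2KR-MYB rescue and 1 in the ANAA-MYB rescue. KEL itself, at 0.98, lay above all of them. The nearest gene at lower coordinates, at -1.07, was called higher in the ANAA-MYB rescue. The nearest at higher coordinates, at -0.02, was not called. The 20 genes around AHSP had a median of -0.0023, and AHSP, at 1.13, also lay above all of them. The gene nearest AHSP at lower coordinates, at 0.56, was called higher in the 2KR-MYB rescue, like AHSP itself. The nearest at higher coordinates, at -0.04, was not called. The 20 genes around ANK1 had a median of -0.14, with 13 of 20 below 0 and 5 called higher in the ANAA-MYB rescue against 1 in the 2KR-MYB rescue, and ANK1 was within their range. The genes closest to ANK1 had log2 differences of -0.41, -0.92 and -0.76 at lower coordinates and -0.46 at higher ones. Each of these was called higher in the ANAA-MYB rescue, like ANK1 itself at -0.56. The next gene out on each side, at 0.06 and -0.18, was not called. The part of the location in the difference of ANK1 was not tested. The medians around the other 5 genes ran from -0.0046 to 0.092.

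The tested genes whose profile over the 6 libraries was most like each gene, by Pearson correlation of log2(FPKM + 1), were found as a description. The points share their rescue, so genes that differ the same way between the rescues score high. The closest were POLR3C and PGR for KEL (r = 0.999 and 0.998), RIT1 and ATP6AP1 for ANK1 (r = 0.9996 and 0.9988), ZNF728 and CLIC2 for AHSP (r = 0.999 and 0.997), SETD2 and VPS13B-DT for SPTB (r = 0.997 and 0.996), and CHORDC1 and POLR3B for RHAG (r = 0.997 and 0.996). Those of GYPB were FAF1 and EIF3H (r = 0.987 for both), and those of GYPC were RAB8A and ENSG00000236498 (r = 0.987 and 0.980). None of these genes is on the lists of red cell membrane genes.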

How the data were processed

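RNA from 6 libraries of K562 clones, 3 of each of 2 rescues, was sequenced by the authors from stranded poly(A) libraries. Per the labels, reads were processed with bcl2fastq 2.18.0.12, Trimmomatic 0.36, TopHat2 2.1.1, Cufflinks and Cuffdiff 2.2.1 on GRCh38, and the authors deposited FPKM per gene and library. The gene annotation and how Cuffdiff scaled the libraries were not given in the sources used here. The 12 other columns of per-sample values were left unused here, so the control, the knockdown and the other rescues enter no comparison. Depth is unknown: at most 6.75% of the ratios of values under 0.5 FPKM between libraries fell in the most frequent bin of 2% width, so no whole reads could be recovered. FPKM was taken as log2(FPKM + 1), genes averaging 1 FPKM or more were tested with limma 3.58.1 in R 4.3.3 (empirical Bayes with trend, two-sided) with Benjamini-Hochberg adjustment, and an adjusted p under 0.01 was called. Symbols were found for 55854 of 58288 gene identifiers, and positions by RefSeq on GRCh38 for 11541 of the 12634 tested genes. The steps were tested on simulated data. In them 100 genes were changed by each size, all with a mean log2(FPKM + 1) above 2, so none as low as AHSP. There 54% of changes of 0.5 on the log2 scale were called, and 91% of changes of 1. The simulation called 148 genes and the data 1642, so these shares need not hold for the data. A gene that missed the threshold may thus still differ. Python 3.11.15 was used with pandas 2.3.3, numpy 2.4.6 and matplotlib 3.10.9.

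The 8 genes, the lists and the tests were chosen with earlier results of these data known, and some genes of the lists and of the rule are not reported here and enter no list count or sum. The genes named are the 8 genes, their direct partners and near copies GYPE, SLC4A1, EPB41, RHCE, XK, HBA1 and HBA2, at most 5 genes past the threshold of each list by smallest adjusted p, and the 2 genes with the most similar profile to each tested gene. RHD, HBG1, HBG2, HBE1, HBZ, TAL1, GP9, PF4, ELANE, MPO, CSF3R, CD14, ITGAM and MS4A1 are named beside them, chosen after their values were seen. Alternatives were a replicate block, a pseudocount of 0.1, quantile normalization, upper quartile scaling, no filter, a filter at 5 FPKM, a robust prior on the variance, a threshold of 0.05 and fits without one of the libraries.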

Additional observations from a re-analysis of the deposited data

How the results depend on the processing

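The calls of KEL and ANK1 held under every alternative, and that of AHSP under every one in which it was tested except no filter. The number of the 8 genes called was 3 in each fit without one library, and 5 under upper quartile scaling, where SPTB and RHAG passed, and at a threshold of 0.05. The number of all genes called was 1642, and it was 942 with no filter, where more genes are tested, 1089 with the replicate block, 3402 at a threshold of 0.05 and 842 to 1201 with one library left out, where fewer samples enter. The number of membrane partners called was 8, and it was 4 with no filter, 13 at a threshold of 0.05 and 3 to 5 with one library left out. Their split, 2 higher in the 2KR-MYB and 6 in the ANAA-MYB rescue, was 4 and 5 under upper quartile scaling and 3 and 5 under quantile normalization. Of all calls, 704 were higher in the 2KR-MYB rescue and 938 in the ANAA-MYB rescue, and under upper quartile scaling 949 and 792. With one library left out, 3 genes with log2 differences near 0 changed sign: GYPC ran from -0.036 to 0.048, EPB41 from -0.0030 to 0.077 and RHCE from -0.046 to 0.26. Replicate numbers did not pair the libraries: the deviations of libraries with the same number correlated at -0.052, -0.035 and -0.003, and under the replicate block the same count of 3 of the 8 genes was called. The unknown depth limits what can be said of the genes below 1 FPKM.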
